A study of Mus musculus with 9 samples.

Results

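The genes examined here encode the lysosomal cathepsins, the subunits of the vacuolar proton pump with its accessory subunits, and the lysosomal membrane glycoproteins LAMP1 and LAMP2. They were chosen by gene symbol, as every row whose symbol was Cts followed by a letter, Atp6v0 or Atp6v1 followed by a letter and an optional digit, *Atp6ap1*, *Atp6ap2*, *Lamp1* or *Lamp2*. This rule matched 44 of the 55471 genes in the deposited counts, of which 32 had at least 10 counts in at least 3 of the 9 libraries. All 32 were among the 16260 genes that entered the test, and the lowest count of any of them in any library was 19. The other 12 did not pass. Of these, 6 (*Atp6v0a4*, *Atp6v1b1*, *Ctsj*, *Ctsm*, *Ctsq* and *Ctsr*) had 0 counts in every library, where the floor of 3 counts corresponds to 0.0674 to 0.106 CPM, the count of a gene relative to the scaled size of its library, and 6 (*Atp6v0e2*, *Atp6v1c2*, *Atp6v1e2*, *Atp6v1g3*, *Ctsg* and *Ctsw*) had at most 5 counts in any library. The 32 genes comprised 9 cysteine cathepsins, 2 aspartic cathepsins, the serine carboxypeptidase *Ctsa*, 7 subunits of the membrane sector V0, 9 subunits of the soluble sector V1, 2 accessory subunits and 2 LAMP genes.

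Cathepsins are proteases of the endosome and lysosome, most of which are made as inactive precursors and work best at acid pH. The acid is supplied by the vacuolar proton pump (V-ATPase), in which the V1 sector hydrolyses ATP on the cytosolic face and the V0 sector carries protons across the membrane. In DCs, cathepsins cut the invariant chain and captured antigen into the peptides that MHC class II presents, and LAMP1 and LAMP2 coat the inner face of the lysosomal membrane.

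RNA was sequenced from DCs grown with GM-CSF (20 ng/mL) from the bone marrow of wild-type C57BL/6 mice, females 8 to 20 weeks old, and harvested on day 8 or 9. The DCs were left unstimulated, activated with LPS at 100 ng/mL, or treated with IFN-β at 1000 U/mL, in each case for 6 h. LPS, from the outer membrane of bacteria, is sensed by a Toll-like receptor, whereas the type I interferon IFN-β acts through its own receptor. Each condition had 3 libraries with the letters A, B and C, and the GM-CSF culture was common to all of them.

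Between 33425803 and 43735199 counts per library fell on genes, and no pair of replicates agreed within sampling noise. The TMM factors, by which library sizes were corrected for composition, were 1.18 to 1.26 in unstimulated, 0.783 to 0.841 in LPS-activated and 0.977 to 1.02 in IFN-β-treated DCs. Under scaling by library size alone, the median over all genes tested shifted on the log2 scale by -0.58 for LPS, by -0.31 for IFN-β and by 0.27 for IFN-β against LPS. The share of changed genes that were higher then went from 48.1% to 21.9%, from 50.3% to 22.3% and from 52.5% to 77.9%, so that the direction of small changes depended on the scaling. CPM per library, and statements on which libraries overlap, are on the TMM scale unless another is named. All 11 markers of GM-CSF-grown DCs had counts, with a summed level of 7228 to 8086 CPM in unstimulated, 9143 to 9629 in LPS-activated and 8069 to 8649 in IFN-β-treated DCs. All 8 macrophage markers had counts too, at 1980 to 2500, 2552 to 3244 and 2528 to 2866 CPM in the same order. The summed level of 9 neutrophil markers was 9.75 to 25.7 CPM, and no library exceeded 0.456 CPM for the markers of T, NK and B cells or 0.276 CPM for those of mast cells and basophils, of which *Mcpt4* and *Cma1* were at 0. A list of 8 osteoclast markers, a cell type in which *Ctsk* and *Atp6v0d2* are also known to be abundant, summed to 415 to 420 CPM in unstimulated, 363 to 402 in LPS-activated and 439 to 498 in IFN-β-treated DCs. The part of other cell types in the results was not tested, and in bulk RNA fewer cells of a type cannot be told apart from less RNA per cell.

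Levels were first compared between genes per exon length, as CPM per kb of exon. The length was that of all annotated exons of a gene together. A single transcript may not hold all of them, so that ranks of genes with many annotated exon bases may be too low. *Ctss*, the cysteine cathepsin that completes invariant chain processing in DCs, was the most abundant of the 32 genes in every condition, with a mean of 2179 CPM per kb in unstimulated, 2581 in LPS-activated and 3018 in IFN-β-treated DCs. In unstimulated DCs it was followed by *Ctsz* (807), *Ctsd* (750), *Ctsb* (536) and *Lamp1* (333). No subunit of the proton pump was above 113 CPM per kb there, and the most abundant of V0 and V1 were *Atp6v0d2* at 113 and *Atp6v1b2* at 106. *Ctsz* and *Ctsd* did not differ beyond the larger of their SDs. From *Atp6v0d2* down to *Ctsh* at 72.3, the only neighbours in this order that did were *Atp6v1g1* (80.3 ± 3.42, SD) and *Atp6v0c* (74.7 ± 2.96). The least abundant genes were *Atp6v1g2* (1.22), *Ctse* (0.597) and *Ctsf* (0.554). After LPS, *Atp6v0d2* had moved from rank 6 to rank 21 at 40.1 CPM per kb, whereas *Ctsc*, an aminopeptidase that activates granule serine proteases, had moved from rank 10 to rank 6 at 268.

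**Figure D1:**
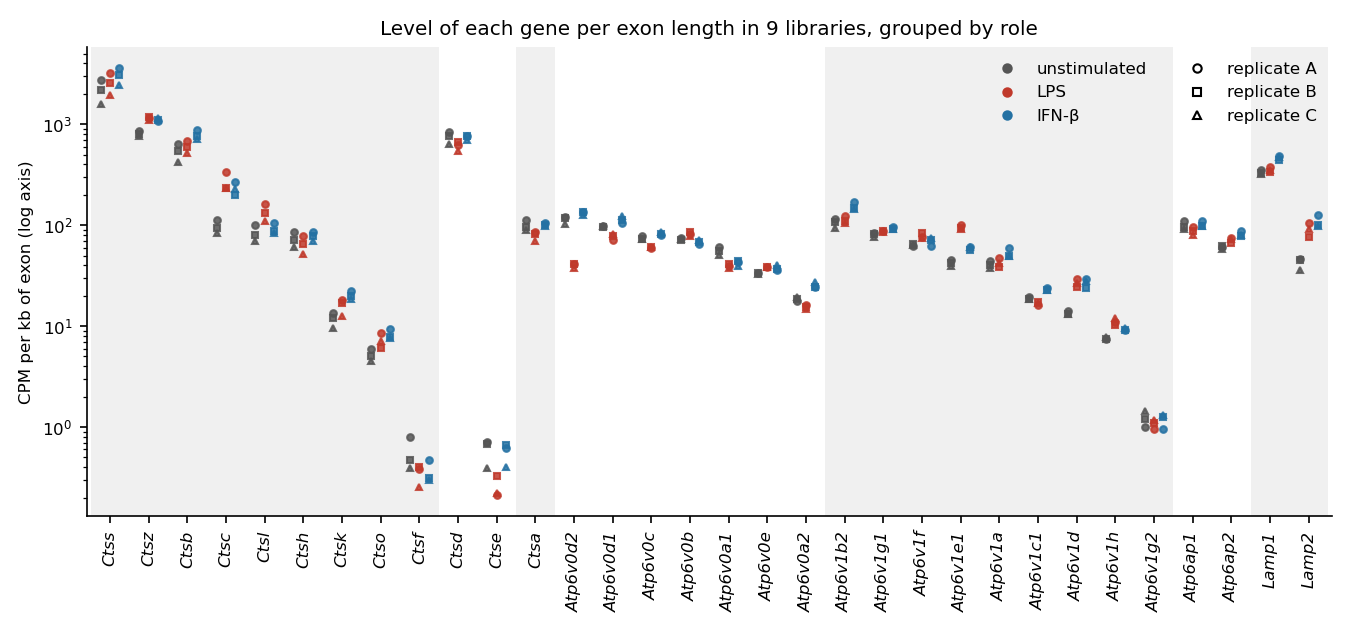
Level of each of the 32 genes in every library, in CPM per kb of exon on a log axis, with genes grouped by role (grey and white bands) and ordered by their level in unstimulated DCs; colours mark the condition and symbols the replicate letter. Mean levels in unstimulated DCs ran from 2179 CPM per kb for *Ctss* to below 1 for *Ctse* and *Ctsf*, and the 3 LPS libraries of *Atp6v0d2* stood below all other libraries of that gene.

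The region around the start site was searched for short sequences that are known to be recognised by factors acting on lysosomal and interferon-induced genes. MiT/TFE factors such as TFEB bind E-boxes in lysosomal gene promoters, and the interferon-stimulated response element (ISRE) is bound by interferon regulatory factors. RefSeq windows on GRCm38.p6 from 250 bases before to 50 bases after the start were at hand for 27 start sites of 23 of the 32 genes, and both strands were searched. The E-box CACGTG was found in 9 of these 27 windows (33.3%), against 7.15% of all 32851 RefSeq windows. Its longer form TCACGTGA, which holds the E-box, was found in 5 windows (18.5%) against 0.974% of all windows. The ISRE core GAAANNGAAA was found in 4 windows (14.8%) against 3.44%. A match is a description of the sequence and not a site of binding. The 5 windows with the longer E-box are shown because they join subunits of both pump sectors with *Ctsa* and *Ctsd*, and capitals mark the motif; the *Ctsa* window holds it at 2 places, beginning 13 bases before and 4 bases after the start.
Atp6v0d1 (chr8:105566043-105566086, minus strand): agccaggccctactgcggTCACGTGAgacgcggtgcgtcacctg
Atp6v0e (chr17:26676380-26676423, plus strand): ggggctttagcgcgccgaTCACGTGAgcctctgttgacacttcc
Atp6v1a (chr16:44139366-44139409, minus strand): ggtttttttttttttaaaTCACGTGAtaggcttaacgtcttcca
Ctsa (chr2:164833742-164833802, plus strand): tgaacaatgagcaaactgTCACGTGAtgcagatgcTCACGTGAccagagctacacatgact
Ctsd (chr7:142387901-142387944, minus strand): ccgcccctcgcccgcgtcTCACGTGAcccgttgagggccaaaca

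*Lamp1* held the E-box at 4 places, the most of the 27 windows, with the first beginning 61 bases and the last 15 bases before the start, and its window is shown for that reason with the E-boxes in capitals.
Lamp1 (chr8:13159082-13159169, plus strand): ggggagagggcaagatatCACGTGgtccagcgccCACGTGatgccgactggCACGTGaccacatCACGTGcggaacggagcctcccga

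The 4 windows with the ISRE core are shown with the core in capitals as it reads on the gene's strand, and the *Ctso* window holds 2 cores that overlap. Of these genes, *Lamp1* rose with IFN-β, *Atp6v1d* and *Ctso* rose with both stimuli, and *Ctss* passed only in some fits, as given below. The windows of *Lamp2* and *Ctsc*, which rose most with IFN-β, held no core, and neither did those of *Ctsk*, *Atp6v1e1* and *Ctsz*, which also rose. A relation of the core to the response was not tested.
Atp6v1d (chr12:78861842-78861887, minus strand): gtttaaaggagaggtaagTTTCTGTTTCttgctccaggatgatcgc
Ctso (chr3:81932598-81932649, plus strand): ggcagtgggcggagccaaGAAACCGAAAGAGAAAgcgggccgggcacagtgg
Ctss (chr3:95526747-95526792, plus strand): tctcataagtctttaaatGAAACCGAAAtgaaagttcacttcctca
Lamp1 (chr8:13159008-13159053, plus strand): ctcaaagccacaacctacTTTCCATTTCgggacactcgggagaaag

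The comparison of LPS-activated with unstimulated DCs asked which of these genes respond to a bacterial stimulus. With LPS, *Ctsc* rose 2.76-fold, *Atp6v1e1* 2.28-fold, *Lamp2* 2.14-fold and *Atp6v1d* 2-fold, whereas *Atp6v0d2* fell 2.82-fold and *Ctse* 2.31-fold. Of the 32 genes, 13 were higher, 9 were lower and 10 did not pass the threshold of an adjusted p under 0.05 by edgeR's quasi-likelihood test. Of all genes tested, 68.2% were changed by the same rule, 32.8% higher and 35.4% lower. The median log2 fold change was 0.10 over the 32 genes and -0.04 over all genes. When only the library size was used for scaling, 8 of the 13 higher genes had a fold change below 0 (*Atp6ap2*, *Atp6v0b*, *Atp6v0e*, *Atp6v1f*, *Atp6v1h*, *Ctsk*, *Ctso* and *Ctsz*). All 9 lower genes stayed below 0, which follows from this scaling, as it shifted values downward (median -0.58). It is therefore no check of the lower calls. Library size alone called 4 of the 32 genes higher and 22 lower, against 78% of all genes changed, 17.1% higher and 60.9% lower. The calls shared by all 4 scalings were those of *Atp6v1d*, *Atp6v1e1*, *Ctsc* and *Lamp2* as higher, and of *Atp6v0a1*, *Atp6v0a2*, *Atp6v0c*, *Atp6v0d1*, *Atp6v0d2*, *Ctsa*, *Ctsd* and *Ctse* as lower.

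By role, 5 of 9 cysteine cathepsins rose with LPS and none passed the threshold as lower, although scaling by library size alone turned *Ctsk*, *Ctso* and *Ctsz*. Under that scaling only *Ctsc* was called higher, and 3 (*Ctsb*, *Ctsf* and *Ctsh*) were called lower. Of all genes, 17.1% were then higher and 60.9% lower. With the replicate letter as a block, in the same edgeR test, 6 of the 9 were higher and 2 (*Ctsf* and *Ctsh*) lower. Over the 32 genes the block gave 14 higher and 12 lower, against 73.5% of all genes changed, 35.4% higher and 38.1% lower. Both aspartic cathepsins and *Ctsa* fell. In the V0 sector 5 of 7 subunits fell and 2 rose, the latter turning with library size alone, and the median log2 fold change was -0.32. In the V1 sector 4 of 9 rose, of which *Atp6v1f* and *Atp6v1h* turned with library size alone, and 1, *Atp6v1c1*, fell, with a median of 0.11. Library size alone called all 7 V0 subunits lower, and of the V1 subunits 2 higher and 6 lower. Of the accessory and LAMP genes, *Atp6ap2* (0.24, -0.34 with library size alone) and *Lamp2* rose.

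The comparison of IFN-β-treated with unstimulated DCs asked the same question of an antiviral mediator. With IFN-β, *Lamp2* rose 2.56-fold, *Ctsc* 2.39-fold, *Atp6v1d* 2.02-fold, *Ctsk* 1.73-fold and *Ctso* 1.61-fold, and *Atp6v0a1* fell 1.31-fold. Of the 32 genes, 19 were higher, 1 was lower and 12 did not pass the threshold, against 46.9% of all genes changed, 23.6% higher and 23.3% lower. The median log2 fold change was 0.26 over the 32 genes and -0.02 over all genes. With scaling by library size alone, 6 of the 19 higher genes had a fold change below 0 (*Atp6v0d1*, *Atp6v0d2*, *Atp6v0e*, *Atp6v1c1*, *Atp6v1g1* and *Atp6v1h*) and 13 stayed above 0. Library size alone called 8 of the 32 genes higher and 7 lower, against 59.2% of all genes changed, 13.2% higher and 46% lower. Under all 4 scalings, *Atp6v1b2*, *Atp6v1d*, *Atp6v1e1*, *Ctsc*, *Ctsk*, *Ctso*, *Lamp1* and *Lamp2* were called higher and *Atp6v0a1* was called lower.

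By role, 5 of 9 cysteine cathepsins, 7 of 9 V1 subunits, 4 of 7 V0 subunits, *Atp6ap2* and both LAMP genes rose with IFN-β, of which the 6 genes just named turned with library size alone. Under that scaling, 3 cysteine cathepsins, 3 V1 subunits and 0 V0 subunits were called higher. It called 1 cysteine cathepsin, 0 V1 subunits and 3 V0 subunits lower. Upper-quartile factors called 1 V0 subunit higher and 2 lower, against 3279 and 4576 of all 16260 genes. With the block, 6 cysteine cathepsins were higher and *Ctsf* was lower, and over the 32 genes 20 were higher and 2 lower, against 56.3% of all genes changed, 27.9% higher and 28.4% lower. Neither the aspartic cathepsins nor *Ctsa* passed the threshold, with log2 fold changes of -0.02 for *Ctsd*, -0.08 for *Ctse* and 0.04 for *Ctsa*.

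The difference between the responses was tested as IFN-β against LPS, in which the unstimulated libraries drop out. Of the 32 genes, 11 were higher with IFN-β, 4 were lower and 17 did not pass, against 49.1% of all genes changed, 25.8% higher and 23.3% lower, and the median log2 difference was 0.22 against 0.02 over all genes. The largest differences were those of *Atp6v0d2* (1.72 ± 0.08, SE), *Ctse* (1.13 ± 0.30), *Atp6v0a2* (0.71 ± 0.07) and *Atp6v1e1* (-0.69 ± 0.07). All 11 genes that were higher stayed above 0 with library size alone, which follows from the upward shift of that scaling (median 0.27). Under all 4 scalings, 10 of them were called. Of the 4 that were lower, *Atp6v0b* and *Atp6v1h* were at 0.01 with library size alone, and *Atp6v1e1* and *Ctsl* stayed below 0, of which *Ctsl* was then no longer called. Library size alone called 23 of the 32 genes higher and 1 lower, against 55.5% of all genes changed, 43.2% higher and 12.3% lower. With the replicate letter as a block, 25 genes passed in place of 15, 19 higher and 6 lower, where the block also raised the share of all genes changed from 49.1% to 58%, 30.3% higher and 27.6% lower. The 10 that were added were *Atp6ap1*, *Atp6v1f*, *Ctsb*, *Ctsc*, *Ctsd*, *Ctsh*, *Ctsk*, *Ctso*, *Ctss* and *Lamp2*. The 2 comparisons with unstimulated DCs share those libraries, so that their values are given side by side for each gene below and agreement between them is not counted.

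**Figure D2:**
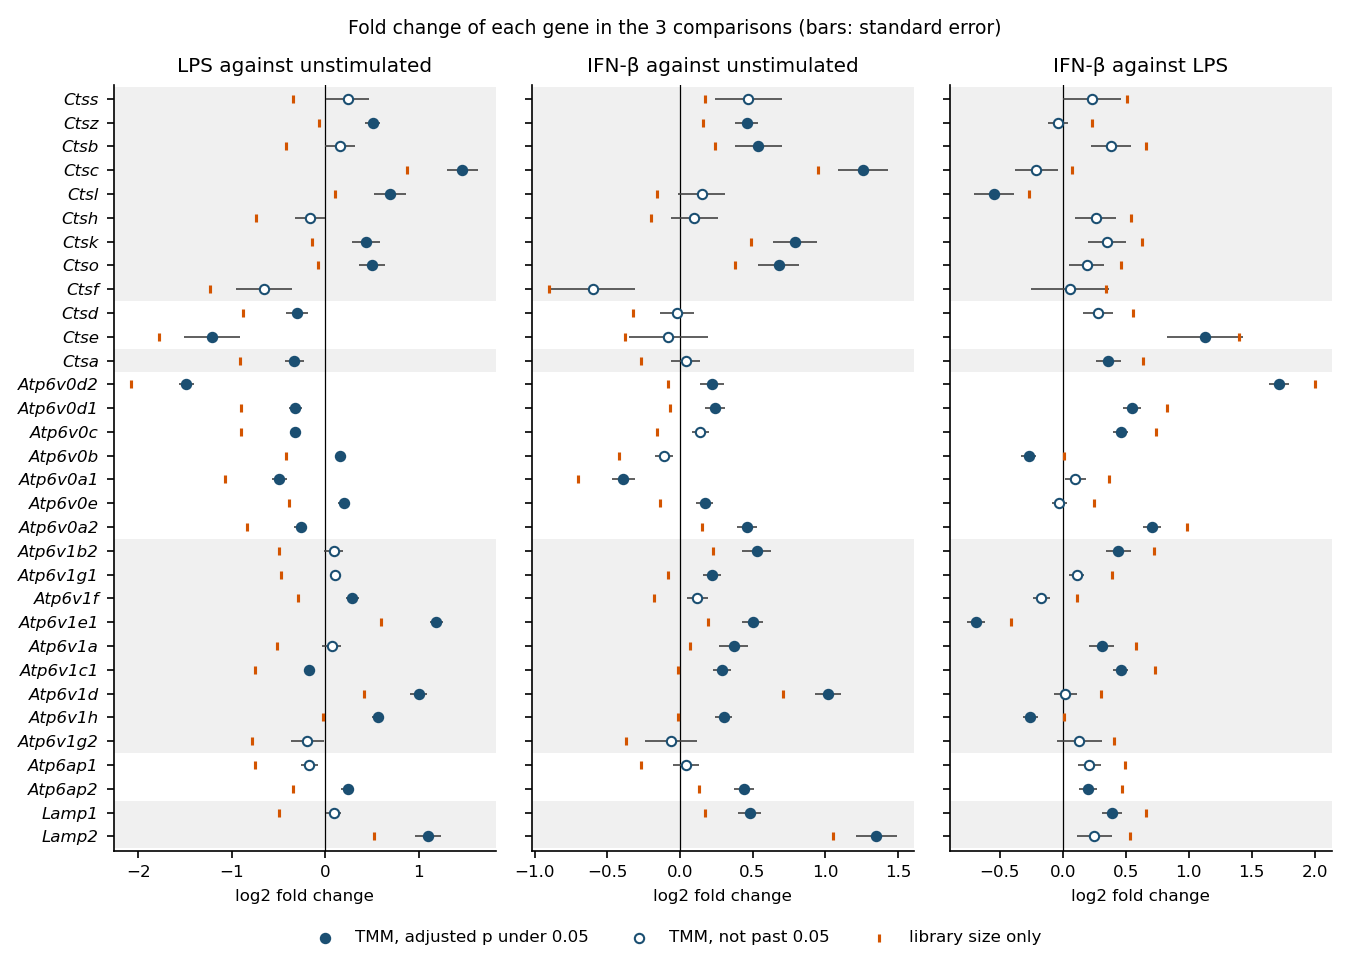
Log2 fold change of each gene in the 3 comparisons, with bars for the standard error, filled circles for an adjusted p under 0.05, open circles for genes that did not pass and orange ticks for scaling by library size alone. With TMM factors 13 genes were higher and 9 lower with LPS and 19 higher and 1 lower with IFN-β; the orange ticks lie to the left in both of these panels, where 8 of the 13 and 6 of the 19 higher genes cross 0, and to the right for IFN-β against LPS, where 2 of 4 lower genes cross 0.

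*Ctss* (chr3:95526786-95556403 on GRCm38) had 3754, 2972 and 2152 CPM in unstimulated DCs, in the order of letters A, B and C. With LPS it had 4344, 3512 and 2661 CPM, and with IFN-β 4853, 4150 and 3291 CPM. The conditions overlapped, but the stimulated library was above the unstimulated library of the same letter in all 6 pairs. The log2 fold change was 0.24 ± 0.23 (SE) for LPS and 0.47 ± 0.23 for IFN-β, neither past the threshold (edgeR, adjusted p = 0.364 and 0.12). With the letter as a block, *Ctss* was called higher in both, at 0.25 ± 0.07 (adjusted p = 0.00622) and 0.49 ± 0.07 (adjusted p = 6.0e-05), and with library size alone LPS gave -0.34. Leaving out 1 library at a time, without the block, gave 0.05 to 0.45 for LPS and 0.28 to 0.67 for IFN-β, and of these fits only that without unstimulated library A passed (0.67 for IFN-β, adjusted p = 0.0402, edgeR).

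The order of the letters was the same in most cathepsins. In 8 of 9 cysteine cathepsins, all but *Ctsz*, library A was above library C in each of the 3 conditions, with ratios for *Ctss* of 1.74 in unstimulated, 1.63 in LPS-activated and 1.47 in IFN-β-treated DCs. The same held for 2 of 7 V0 subunits and 4 of 9 V1 subunits, and over all 32 genes for 20, with the opposite order in 2. Of all genes tested, 24.8% had A above C in each condition and 22.5% the opposite order. These counts are a description and were not tested. What the letters stand for is not given in the sources used here.

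*Ctsc*, whose product removes dipeptides from the ends of proteins, showed the largest rise of the 32 genes with LPS. It is encoded at chr7:88278085-88310888 and had 659, 538 and 491 CPM in unstimulated DCs. It had 1958, 1356 and 1349 CPM with LPS and 1559, 1155 and 1319 CPM with IFN-β. All 6 stimulated libraries were above all 3 unstimulated libraries, while the LPS and IFN-β libraries overlapped. The log2 fold change was 1.47 ± 0.17 for LPS (2.76-fold, adjusted p = 2.4e-05) and 1.26 ± 0.17 for IFN-β (2.39-fold, adjusted p = 2.1e-04) by edgeR's quasi-likelihood test, and 0.88 and 0.95 with library size alone. The difference between the responses was -0.21 ± 0.17 and did not pass (adjusted p = 0.341), whereas it passed with the block (-0.20 ± 0.08, adjusted p = 0.0414) and was 0.07 with library size alone.

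Of the other cysteine cathepsins, *Ctsl*, an endopeptidase also involved in invariant chain processing, rose with LPS by 0.69 ± 0.17 on the log2 scale (adjusted p = 0.00324, edgeR) from 541 ± 104 to 874 ± 162 CPM (SD, n = 3), and the smallest LPS library exceeded the largest unstimulated library. With library size alone the LPS fold change was 0.11 (adjusted p = 0.473) and these libraries overlapped. With IFN-β it was at 598 ± 77.2 CPM (0.15 ± 0.16, adjusted p = 0.497), and the responses differed by -0.55 ± 0.16 (adjusted p = 0.018), a call lost without LPS library A (-0.41), IFN-β library B (-0.51) or IFN-β library C (-0.48), and with library size alone (-0.27, adjusted p = 0.122). An antisense gene, *Gm47123*, overlaps 26.8% of the exon bases of *Ctsl*, and the strand setting of the counting is not given. *Ctsb*, an endopeptidase and carboxypeptidase, was at 3244 ± 660 CPM in unstimulated, 3626 ± 529 in LPS-activated and 4723 ± 505 in IFN-β-treated DCs. It passed only for IFN-β among the comparisons without the block (0.54 ± 0.16, adjusted p = 0.0198), and not without unstimulated library B (0.54), unstimulated library C (0.40) or IFN-β library A (0.45), nor with library size alone (0.24, adjusted p = 0.147).

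*Ctsz*, a carboxypeptidase, was at 1162 ± 69.7 CPM and rose by 0.51 ± 0.08 with LPS (-0.07 with library size alone) and by 0.46 ± 0.08 with IFN-β (0.16, no longer called, with library size alone). *Ctsk*, a collagen-degrading protease known from osteoclasts, rose from 17.7 ± 2.96 CPM by 0.44 ± 0.15 with LPS (-0.14 with library size alone) and by 0.79 ± 0.15 with IFN-β. The LPS call of *Ctsk* was lost without unstimulated library B (0.45) or C (0.31), or without LPS library A (0.34) or B (0.39). *Ctso*, a cysteine protease of the same family, rose from 26.4 ± 3.51 CPM by 0.50 ± 0.14 (-0.08 with library size alone) and 0.68 ± 0.14. *Ctsz*, *Ctsk* and *Ctso* did not pass for the difference between the stimuli without the block. *Ctsh*, an aminopeptidase, did not pass in the fit without the block (-0.16 with LPS, 0.10 with IFN-β), and neither did the scarce *Ctsf* (-0.66 and -0.60). With the block, *Ctsh* was called lower with LPS (-0.16 ± 0.07, adjusted p = 0.0383, edgeR) and *Ctsf* with both stimuli (-0.63 ± 0.18, adjusted p = 0.00607, and -0.59 ± 0.17, adjusted p = 0.00964). Without the block, leaving out 1 library at a time moved *Ctsf* from -0.87 to -0.31 for LPS and from -0.84 to -0.25 for IFN-β, and it passed only without unstimulated library C (-0.87 and -0.80).

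*Ctsd*, the abundant aspartic endopeptidase of lysosomes, had 1978, 1810 and 1503 CPM in unstimulated DCs, 1456, 1559 and 1275 CPM with LPS and 1802, 1783 and 1633 CPM with IFN-β. The LPS libraries were lower on average, and library B of LPS lay above library C of the unstimulated DCs. *Ctsd* had a log2 fold change of -0.30 ± 0.12 for LPS (adjusted p = 0.0406, edgeR) and -0.02 ± 0.12 for IFN-β. The LPS call was lost without unstimulated library A (-0.22), unstimulated library B (-0.29), LPS library A (-0.31), LPS library C (-0.23) or IFN-β library B (-0.30). A predicted gene on the same strand, *Gm49369*, shares 34.4% of the exon bases of *Ctsd*, and reads that fall on both genes are not counted by STAR for either.

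*Ctse*, an aspartic protease of endosomes, was scarce, with 2.26, 2.16 and 1.26 CPM in unstimulated DCs, 0.672, 1.05 and 0.707 CPM with LPS and 1.97, 2.1 and 1.27 CPM with IFN-β. All 3 LPS libraries were below the other 6. It fell 2.31-fold with LPS (log2 -1.21 ± 0.30, adjusted p = 0.00425, edgeR), and the IFN-β response was higher than the LPS response by 1.13 ± 0.30 (adjusted p = 0.0103). *Ctsa*, which protects lysosomal glycosidases as well as cutting proteins, had 525, 452 and 426 CPM in unstimulated DCs, 407, 386 and 326 CPM with LPS and 498, 474 and 466 CPM with IFN-β. The LPS libraries were all below the unstimulated and IFN-β libraries. The fold change for LPS was -0.33 ± 0.10 (adjusted p = 0.0152), a call lost without unstimulated library A (-0.24) or LPS library C (-0.24), and the responses differed by 0.36 ± 0.10 (adjusted p = 0.0133), a call lost without LPS library C (0.27).

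*Atp6v0d2* (chr4:19876841-19922605), an isoform of the subunit that links the rotor of V0 to V1 and that is known to be abundant in osteoclasts and macrophages, showed the largest fall with LPS. It had 325, 318 and 279 CPM in unstimulated DCs and 113, 112 and 102 CPM with LPS. With IFN-β it had 370, 363 and 342 CPM. The LPS libraries lay far below all others, and those with IFN-β were all higher than the unstimulated ones, which they overlapped with library size alone. The log2 fold change was -1.49 ± 0.08 for LPS (2.82-fold lower, adjusted p = 5.6e-08, edgeR) and 0.22 ± 0.08 for IFN-β (adjusted p = 0.0348), the latter -0.08 with library size alone and 0.15 (adjusted p = 0.103) with upper-quartile factors. The IFN-β call was lost without unstimulated library B (0.24), unstimulated library C (0.16), LPS library B (0.22), IFN-β library A (0.19) or IFN-β library B (0.22), while the difference between the responses was 3.29-fold (adjusted p = 7.5e-08) and was 2.0 on the log2 scale with library size alone. Of the 7 osteoclast markers that entered the test, 4 fell and 2 rose with LPS, against 35.4% and 32.8% of all genes. Of the 2 that rose, *Calcr* was scarce, at 0 CPM in unstimulated DCs and 0.966 CPM with LPS. The part of these markers in the result was not tested.

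*Atp6v0d1*, the widely expressed isoform of the same subunit, had 174, 170 and 174 CPM in unstimulated DCs, 129, 140 and 147 CPM with LPS and 190, 200 and 220 CPM with IFN-β. The LPS libraries were the lowest and the IFN-β libraries the highest, with no overlap, although the IFN-β and unstimulated libraries overlapped with library size alone. The log2 fold change was -0.32 ± 0.07 for LPS (adjusted p = 0.00249, edgeR) and 0.24 ± 0.07 for IFN-β (adjusted p = 0.0213, -0.07 with library size alone and 0.16 with upper-quartile factors, neither called), and the IFN-β call was lost without unstimulated library B (0.22) or IFN-β library C (0.18). The shares of the d isoforms do not depend on the scaling. *Atp6v0d1* made up 44.8%, 44.8% and 48.6% of the pair per exon length in unstimulated DCs, 63.4%, 65.4% and 68.5% with LPS and 43.8%, 45.5% and 49.3% with IFN-β. The LPS libraries were above all others, by 19.7 percentage points over the unstimulated mean, and the IFN-β and unstimulated libraries overlapped. An exact two-sided permutation test gave p = 0.1 for LPS, the smallest that 3 libraries against 3 allow, and p = 1 for IFN-β.

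*Atp6v0a1* and *Atp6v0a2* are isoforms of the large membrane subunit through which protons pass. *Atp6v0a1* had 396, 366 and 330 CPM in unstimulated DCs, 256, 273 and 248 CPM with LPS and 282, 290 and 260 CPM with IFN-β. It fell with both stimuli, by 0.49 ± 0.08 on the log2 scale with LPS (adjusted p = 3.2e-04, edgeR) and by 0.39 ± 0.08 with IFN-β (adjusted p = 0.00286), and each unstimulated library was above all 6 stimulated libraries. *Atp6v0a2* had 118, 126 and 131 CPM in unstimulated DCs, 110, 104 and 100 CPM with LPS and 165, 164 and 186 CPM with IFN-β. Its LPS libraries were the lowest and its IFN-β libraries the highest, without overlap. Its log2 fold changes were -0.26 ± 0.07 with LPS (adjusted p = 0.00833) and 0.46 ± 0.07 with IFN-β (adjusted p = 4.9e-04). With library size alone the IFN-β fold change was 0.15 and was not called (adjusted p = 0.116), and the IFN-β and unstimulated libraries overlapped. The share of *Atp6v0a2* in the pair per exon length was 25.2% ± 2.71 (SD, n = 3) in unstimulated, 28.3% ± 1.18 in LPS-activated and 37.7% ± 2.97 in IFN-β-treated DCs. The share with IFN-β was higher by 12.5 percentage points in the mean and by 10.5 to 13.8 within pairs of the same letter (exact permutation p = 0.1, the smallest possible), while the difference for LPS was 3.07 points, 0.26 to 6.93 within pairs (exact permutation p = 0.2). It was 1.75 points without unstimulated library A and 4.45 without unstimulated library C. The pair leaves out the a3 isoform *Tcirg1*, at 77 CPM per kb in unstimulated DCs against 55.5 for *Atp6v0a1* and 18.6 for *Atp6v0a2*. *Tcirg1* rose with LPS (0.76 ± 0.08) and with IFN-β (0.77 ± 0.08). The shares are therefore those within this pair and not among all a isoforms, for which they were not computed.

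The remaining V0 subunits are *Atp6v0c* and *Atp6v0b*, which form the proton-carrying ring, and the small subunit *Atp6v0e*. *Atp6v0c* fell with LPS from 253 ± 10 to 203 ± 2.85 CPM (-0.32 ± 0.06, adjusted p = 8.7e-04, edgeR) and was at 279 ± 11.4 CPM with IFN-β (0.14 ± 0.06, adjusted p = 0.0826). Its reads may be split with processed copies of the gene. *Atp6v0b* rose slightly with LPS (0.16 ± 0.06, adjusted p = 0.0389, -0.42 with library size alone), and this call was lost without unstimulated library A (0.16), B (0.13) or C (0.15), LPS library A (0.16) or B (0.13), or IFN-β library B (0.16). Its IFN-β libraries were all below the unstimulated ones, but the change did not pass (-0.11 ± 0.06, adjusted p = 0.162). It was called lower with IFN-β under upper-quartile factors (-0.19, adjusted p = 0.0274, edgeR) and library size alone (-0.42). *Atp6v0e* rose by 0.20 ± 0.06 with LPS and by 0.17 ± 0.06 with IFN-β, with -0.39 and -0.14 under library size alone. Its LPS call was lost without unstimulated library C (0.17), and its IFN-β call when any library other than IFN-β library A was left out (0.13 to 0.18).

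In the V1 sector, *Atp6v1e1* (chr6:120794305-120822793) and *Atp6v1d* (chr12:78840725-78861638) changed most. *Atp6v1e1*, part of the peripheral stalk that holds V1 in place, had 184, 173 and 161 CPM in unstimulated DCs, 417, 388 and 375 CPM with LPS and 249, 235 and 249 CPM with IFN-β. The conditions did not overlap, and LPS was the highest. Log2 fold changes were 1.19 ± 0.07 for LPS (2.28-fold, adjusted p = 1.7e-07, edgeR), 0.50 ± 0.07 for IFN-β (adjusted p = 2.9e-04) and -0.69 ± 0.07 for the difference (adjusted p = 2.5e-05), and with library size alone 0.60, 0.19 and -0.41. *Atp6v1d*, part of the central rotor, had 64.9, 60.7 and 60.4 CPM in unstimulated DCs, 134, 113 and 124 CPM with LPS and 136, 110 and 130 CPM with IFN-β. Both stimulated groups were above the unstimulated DCs and overlapped each other. Its log2 fold changes were 1.0 ± 0.09 for LPS (adjusted p = 3.2e-06) and 1.02 ± 0.09 for IFN-β (adjusted p = 1.3e-05), and the difference of 0.02 ± 0.09 did not pass (adjusted p = 0.875).

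*Atp6v1b2* and *Atp6v1a* encode the B and A subunits, which together hold the sites of ATP hydrolysis. *Atp6v1b2*, the most abundant V1 subunit per length in unstimulated DCs, had 617, 567 and 499 CPM there, 656, 586 and 555 CPM with LPS and 892, 783 and 759 CPM with IFN-β. The IFN-β libraries were above all others, and the LPS and unstimulated libraries overlapped. It rose with IFN-β by 0.53 ± 0.10 (adjusted p = 0.00186, edgeR) and the LPS fold change was 0.09 ± 0.10 (adjusted p = 0.44, -0.49 with library size alone). *Atp6v1a* rose with IFN-β by 0.37 ± 0.10 from 246 ± 20.3 to 319 ± 33.3 CPM (0.07, adjusted p = 0.488, with library size alone), with an LPS fold change of 0.07 ± 0.10 that was -0.52 with library size alone. The difference between stimuli passed for both genes, at 0.44 ± 0.10 and 0.31 ± 0.10, and for *Atp6v1a* it was lost without LPS library B (0.24), LPS library C (0.30) or IFN-β library A (0.21).

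*Atp6v1g1* and *Atp6v1g2* are isoforms of a further stalk subunit, the latter known mainly from neurons. *Atp6v1g1* had 94.4, 92.2 and 86.9 CPM in unstimulated DCs, 100, 98.8 and 96.4 CPM with LPS and 110, 105 and 104 CPM with IFN-β, and rose with IFN-β by 0.22 ± 0.06 (adjusted p = 0.00936, edgeR, -0.08 with library size alone). *Atp6v1g2* had 2.53, 3.03 and 3.65 CPM, 2.41, 2.74 and 2.92 CPM, and 2.41, 3.13 and 3.34 CPM in the same order, and the conditions overlapped. It made up 1.51% ± 0.336 (SD, n = 3) of the pair per exon length in unstimulated, 1.22% ± 0.14 in LPS-activated and 1.25% ± 0.238 in IFN-β-treated DCs, with exact permutation p = 0.3 and 0.4 against unstimulated DCs. The permutation does not use the letters. Within pairs of the same letter the share was lower in each, by -0.516 to -0.127 percentage points with LPS and -0.437 to -0.127 with IFN-β. Of the other V1 subunits, *Atp6v1h*, a regulatory subunit, rose by 0.56 ± 0.06 with LPS and 0.30 ± 0.06 with IFN-β, which became -0.02 and -0.01 with library size alone. *Atp6v1f*, a part of the rotor, rose with LPS by 0.29 ± 0.07 (-0.29 with library size alone). *Atp6v1c1*, which joins the stalks, fell with LPS by 0.17 ± 0.06 and rose with IFN-β by 0.29 ± 0.06 (-0.01 with library size alone), the LPS call being lost without unstimulated library A (-0.15) or LPS library A (-0.14).

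The mean log2 level per exon length over the 9 V1 genes minus that over the 7 V0 genes does not depend on the scaling. It was -1.31, -1.29 and -1.28 in unstimulated DCs, -0.57, -0.66 and -0.58 with LPS and -0.98, -1.06 and -1.05 with IFN-β. The conditions did not overlap, and the mean moved toward V1 by 0.69 with LPS and by 0.26 with IFN-β. The mean is not weighted by level, so that *Atp6v1g2* at 1.22 CPM per kb counted as much as *Atp6v1b2* at 106. The LPS value includes the largest LPS changes among these genes, the fall of *Atp6v0d2* and the rises of *Atp6v1e1* and *Atp6v1d*. The value without these genes was not computed, so that it may not describe the sectors as a whole. The 7 V0 genes do not include *Tcirg1*, which the symbol rule does not take and which rose with LPS (0.76 ± 0.08) and IFN-β (0.77 ± 0.08). A rise in V0 makes the move toward V1 smaller, and the values with *Tcirg1* were not computed.

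**Figure D3:**
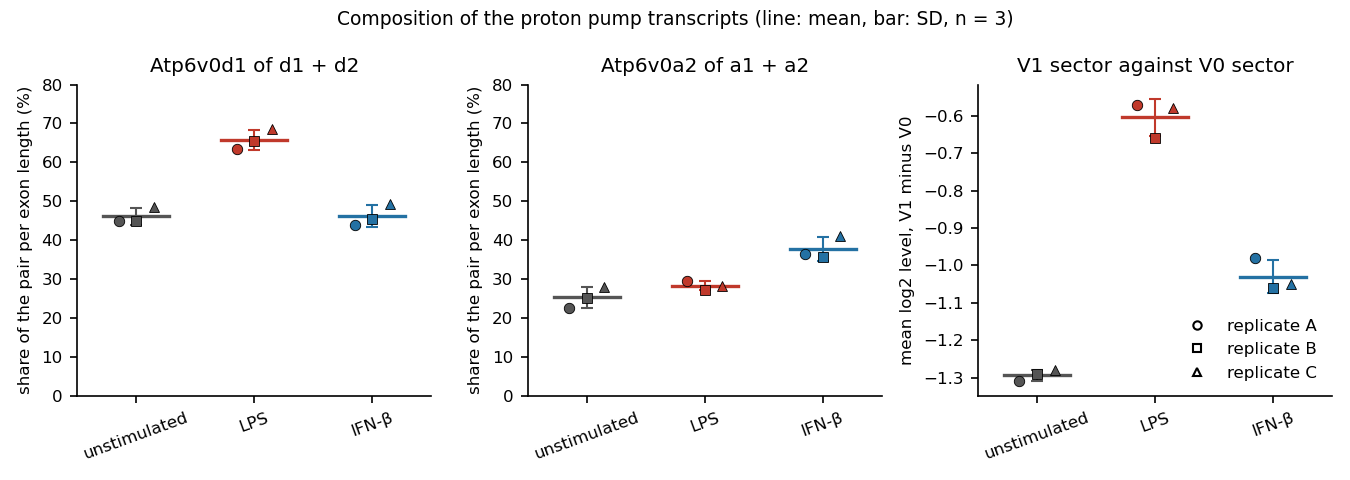
Share of *Atp6v0d1* in the d pair and of *Atp6v0a2* in the a pair (percent, per exon length) and the mean log2 level of the V1 genes minus that of the V0 genes, in each library (symbols: replicate letter), with the mean as a line and the SD as a bar (n = 3). The share of *Atp6v0d1* was 63.4% to 68.5% with LPS and 43.8% to 49.3% in the other libraries, the share of *Atp6v0a2* was highest with IFN-β, and V1 minus V0 was highest with LPS. The a3 isoform *Tcirg1* is in neither the a pair nor the V0 genes.

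The accessory subunit *Atp6ap1*, which helps the pump to assemble, had 330, 290 and 276 CPM in unstimulated DCs, 287, 266 and 244 CPM with LPS and 329, 296 and 294 CPM with IFN-β. The conditions overlapped, and it passed in none of the comparisons without the block. With the block it was called lower with LPS (-0.17 ± 0.06, adjusted p = 0.0158, edgeR) and higher with IFN-β than with LPS (0.21 ± 0.06, adjusted p = 0.00623). *Atp6ap2*, also known as the prorenin receptor, rose by 0.24 ± 0.07 with LPS (-0.34 with library size alone) and by 0.44 ± 0.07 with IFN-β (0.13, no longer called, with library size alone). The difference of 0.20 ± 0.07 (adjusted p = 0.0347) was lost without LPS library B (0.15), LPS library C (0.21), IFN-β library A (0.15) or IFN-β library C (0.21).

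*Lamp2* (chrX:38401357-38456454), which takes part in autophagosome fusion and in chaperone-mediated autophagy, had 439, 429 and 347 CPM in unstimulated DCs, 1001, 728 and 875 CPM with LPS and 1196, 962 and 946 CPM with IFN-β. All stimulated libraries were above all unstimulated libraries, and LPS and IFN-β overlapped. On the log2 scale, *Lamp2* rose by 1.10 ± 0.14 for LPS (2.14-fold, adjusted p = 4.6e-05, edgeR) and 1.35 ± 0.14 for IFN-β (2.56-fold, adjusted p = 3.7e-05), and 0.52 and 1.05 with library size alone. The difference of 0.25 ± 0.14 did not pass (adjusted p = 0.162), but did with the block (0.25 ± 0.09, adjusted p = 0.0271). *Lamp1* had 940, 876 and 857 CPM in unstimulated DCs, 997, 904 and 949 CPM with LPS and 1289, 1181 and 1254 CPM with IFN-β. The IFN-β libraries were above all others. *Lamp1* rose with IFN-β by 0.48 ± 0.08 (adjusted p = 6.4e-04), while the LPS fold change was 0.09 ± 0.08 (adjusted p = 0.316, -0.49 with library size alone), and the difference of 0.39 ± 0.08 passed (adjusted p = 0.00214). In unstimulated DCs *Lamp1* stood at 333 and *Lamp2* at 42.4 CPM per kb, with exon lengths of 2675 and 9552 bases and means of 891 and 405 CPM.

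**Figure D4:**
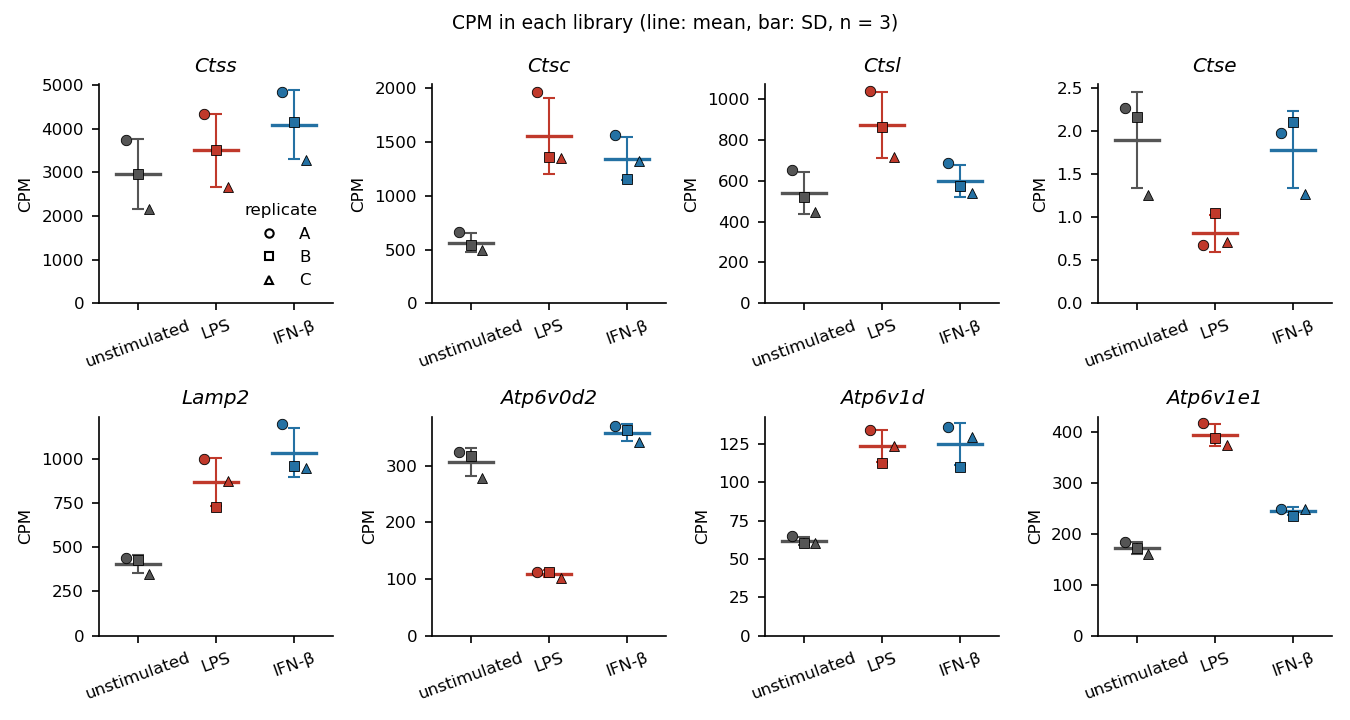
CPM of 8 of the genes in each library (symbols: replicate letter), with the mean as a line and the SD as a bar (n = 3 per condition). The unstimulated and stimulated libraries do not overlap for *Ctsc*, *Lamp2*, *Atp6v1d* and *Atp6v1e1*, the LPS libraries of *Atp6v0d2* and *Ctse* are below all others, and the libraries of *Ctss* overlap between conditions, with A above C in each.

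Related genes were read from lists of the same pathway, and each count stands against the share of all genes called, which was 32.8% higher and 35.4% lower with LPS (17.1% and 60.9% with library size alone) and 23.6% higher and 23.3% lower with IFN-β (13.2% and 46% with library size alone). The median log2 fold change over all genes was -0.04 with LPS and -0.02 with IFN-β, and -0.62 and -0.32 with library size alone. A list of protease inhibitors held cystatins, stefins and serpins, not all of which act on the cathepsins described here. Of 10 tested, 8 (80%) rose and 0 fell with LPS (5 and 2 with library size alone), with a median log2 fold change of 0.92. With IFN-β, 5 (50%) rose and 0 fell (4 and 2 with library size alone, 6 and 2 with the block). The median with IFN-β was 0.27, and -0.03 with library size alone. The test called 7 of them lower with IFN-β than with LPS, against 23.3% of all genes. The largest changes were those of the serpins *Serpina3f* (8.19 ± 0.44 with LPS, 6.72 ± 0.45 with IFN-β) and *Serpina3g* (4.77 ± 0.22 and 4.28 ± 0.22), whose reads may be shared with close copies in the same gene cluster. The secreted inhibitor *Cst3*, cystatin C, named here after its values were seen, rose with LPS by 0.91 ± 0.12 from 438 to 823 CPM. A list of 10 further genes held 7 proteases outside the cathepsins, the thioesterases *Ppt1* and *Ppt2*, and *Pepd*, a cytosolic dipeptidase. With LPS, 2 (20%) rose and 5 (50%) fell (0 and 9 with library size alone), with a median of -0.31. Those that fell were the peptidases *Prcp* (-1.08 ± 0.07) and *Dpp7* (-0.84 ± 0.10), *Napsa* (-0.21 ± 0.09), *Ppt1* (-0.51 ± 0.10) and *Pepd* (-0.44 ± 0.06), of which *Napsa* and *Ppt1* were named after their values were seen. With IFN-β, 1 (10%) rose and 1 (10%) fell (0 and 5 with library size alone, 3 and 2 with the block). *Scpep1*, a carboxypeptidase, rose with both (0.60 ± 0.17 and 0.49 ± 0.17). *Ppt2* rose with LPS (0.37 ± 0.08, -0.21 with library size alone), and *Pepd* fell also with IFN-β (-0.19 ± 0.06).

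Of 36 genes for other lysosomal enzymes and their activator proteins, 22 (61.1%) fell and 6 (16.7%) rose with LPS (31 and 3 with library size alone), with a median log2 fold change of -0.42. With IFN-β, 9 (25%) rose and 7 (19.4%) fell (6 and 16 with library size alone), shares near those of all genes, with a median of 0.16 that was -0.15 with library size alone. The block raised the number higher with IFN-β to 18 and that lower to 9, while it raised the shares of all genes to 27.9% and 28.4%. *Sgsh*, the heparan sulfamidase, fell by 2.57 ± 0.21 with LPS and by 0.88 ± 0.19 with IFN-β. *Pla2g15*, a lysosomal phospholipase, fell with both as well (-2.03 ± 0.11 with LPS, -0.55 ± 0.11 with IFN-β). *Gla*, the alpha-galactosidase, rose with IFN-β by 0.93 ± 0.11, and *Hyal2*, a hyaluronidase, fell with both (-0.53 ± 0.19 with LPS, -0.71 ± 0.18 with IFN-β). The ribonucleases *Rnaset2b* (4.06 ± 0.24) and *Rnaset2a* (2.37 ± 0.17 with LPS, 1.22 ± 0.17 with IFN-β) are near-identical copies, so that the split of reads between them is uncertain. Of 36 membrane proteins and transporters, 14 (38.9%) rose and 14 (38.9%) fell with LPS (8 and 25 with library size alone), near the shares of all genes, with a median of -0.06. With IFN-β, 18 (50%) rose and 6 (16.7%) fell (11 and 15 with library size alone), with a median of 0.21 that was -0.10 with library size alone. *Slc15a3*, a peptide and histidine transporter, rose with both (2.7 ± 0.07 and 1.30 ± 0.07) and the iron transporter *Slc11a2* with LPS (1.96 ± 0.07). The channel *Mcoln3* fell with LPS (-2.83 ± 0.39), and the amino acid transporter *Slc36a1* fell with LPS (-2.14 ± 0.10) and IFN-β (-0.49 ± 0.10). The sorting receptor *Sort1* (-1.86 ± 0.08 with LPS, -1.16 ± 0.08 with IFN-β) and the cystine exporter *Ctns* (-1.87 ± 0.09 and -0.50 ± 0.08) also fell with both.

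Of 15 genes for the a3 subunit, assembly and regulation of the pump, 3 (20%) rose and 7 (46.7%) fell with LPS (3 and 12 with library size alone), with a median of -0.20. With IFN-β, 7 (46.7%) rose and 5 (33.3%) fell (4 and 6 with library size alone), with a median of 0.18 that was -0.13 with library size alone. *Tcirg1*, which encodes the a3 isoform and which the symbol rule does not take, was named after its values were seen and rose from 355 CPM to 602 CPM with LPS (0.76 ± 0.08) and to 603 CPM with IFN-β (0.77 ± 0.08). The lysosomal chloride-proton exchanger *Clcn7* rose with both stimuli (1.31 ± 0.10 and 1.17 ± 0.10), as did *Ncoa7*, a partner of the pump (1.19 ± 0.08 and 0.79 ± 0.08). *Wdr7* (-1.58 ± 0.06 with LPS, -0.30 ± 0.06 with IFN-β) and *Dmxl2* (-1.51 ± 0.08 with LPS, -0.60 ± 0.08 with IFN-β), the subunits of rabconnectin-3, which promotes assembly of V1 with V0, fell. *Rogdi* also fell with both (-0.58 ± 0.09 with LPS, -0.39 ± 0.09 with IFN-β).

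Of 19 genes for MiT/TFE factors and mTORC1 control at the lysosome, 5 (26.3%) rose and 8 (42.1%) fell with LPS (1 and 16 with library size alone), near the shares of all genes, with a median of -0.14. With IFN-β, 7 (36.8%) rose and 2 (10.5%) fell (4 and 11 with library size alone), with a median of 0.11 that was -0.20 with library size alone. *Tfeb* fell with LPS from 39.2 to 12.3 CPM (-1.67 ± 0.13, adjusted p = 1.1e-06, edgeR) and was at 38.2 CPM with IFN-β (adjusted p = 0.836). *Mitf* rose with LPS (0.92 ± 0.07) and with IFN-β (0.58 ± 0.07). Of the Rag GTPases, which recruit mTORC1 to the lysosome, *Rragd* fell with LPS (-2.07 ± 0.38) and *Rragc* rose with both (0.67 ± 0.10 and 0.85 ± 0.10). With IFN-β, *Fnip2*, a folliculin partner, rose (0.93 ± 0.15). *Lamtor4* (-1.37 ± 0.08 with LPS, -0.66 ± 0.08 with IFN-β) and *Rptor* (-0.43 ± 0.07 and -0.32 ± 0.07) fell with both. Of 12 genes for MHC class II loading, 5 (41.7%) rose and 4 (33.3%) fell with LPS (0 and 7 with library size alone), near the shares of all genes, with a median of 0.25 that was -0.33 with library size alone. With IFN-β, 2 (16.7%) rose and 1 (8.33%) fell (1 and 7 with library size alone, 2 and 2 with the block), with a median of 0.01 that was -0.30 with library size alone. With LPS, *H2-DMa*, which exchanges peptides on MHC class II, fell by 1.10 ± 0.08 and *Ifi30*, a lysosomal thiol reductase, by 0.80 ± 0.12. *H2-Oa* (0.80 ± 0.14) and *H2-Ob* (0.71 ± 0.19), which restrain that exchange, rose. *Marchf1*, a ubiquitin ligase for MHC class II, rose with both stimuli (0.69 ± 0.10 with LPS, 0.63 ± 0.10 with IFN-β). *H2-Oa* rose also with IFN-β (0.58 ± 0.14), while *H2-DMb2* fell with both (-0.66 ± 0.14 with LPS, -0.46 ± 0.14 with IFN-β).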

How the data were processed

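The data are 9 RNA sequencing libraries of DCs grown from bone marrow, in 3 conditions. The authors trimmed adapters with Trim Galore (0.6.0 in the submitters' processing notes), mapped the trimmed reads with STAR and took its counts on GENCODE genes (STAR 2.7.8a in those notes, an earlier version in the paper's methods; the strand column is not given in the sources used here). They deposited raw counts per gene and library, not normalized, not filtered and not pooled. The genes described and all lists were chosen with earlier results of these data known.

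The test was that of the paper's methods, run in R 4.3.3 with edgeR 4.0.16 (limma 3.58.1 was loaded with it). TMM factors, the filterByExpr function and quasi-likelihood F-tests were used, with 1 term per condition over all 9 libraries and Benjamini-Hochberg adjustment over the 16260 genes tested, at a threshold of 0.05. Every adjusted p-value is from this test unless another fit is named. The standard error (SE, given after ±) of a log2 fold change was obtained from its size and the F statistic, as size over the root of F; after ± beside a CPM or a percentage stands the SD. CPM are TMM-scaled. Exon lengths, coordinates and overlaps are from GENCODE M21 on GRCm38, the release at hand, in which 55144 of 55471 identifiers had an entry. Isoform shares were compared by an exact permutation test over 3 libraries against 3.

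Values are given per library for genes with an adjusted p under 0.05 and a log2 fold change of 1 or more in size in any comparison, for the most abundant gene of each role and for isoform partners; the other genes are given by mean or fold change. From each other list, the 2 largest changes past the threshold in each direction were named. A further list held stimulation markers. Its largest rises were those of *Il6* (10.18 ± 0.38) and *Il12b* (10.05 ± 0.21) with LPS. With IFN-β they were those of *Cxcl10* (7.03 ± 0.31) and *Rsad2* (6.22 ± 0.46). Libraries with the same letter deviated together: after the condition means were subtracted, all 9 same-letter pairs correlated across genes above 0.1 (0.115 to 0.47, mean 0.322), and the 18 other pairs had a mean of -0.16. The letter was therefore also fitted as a block, although no source states that it marks a shared culture or animal, so that p-values may measure technical spread only. Depth was 33425803 to 43735199 counts per library; floors cover counting error only. The fit was tested on simulated counts with known changes in the LPS group. Of 88 genes changed by 1 on the log2 scale 76.1% were recovered, and of 109 changed by 2, 88.1%. Of the calls, 7.91% were false. Few genes were changed there, against 68.2% called with LPS in the data, so that it does not show how the fit performs under such a shift. Alternatives were DESeq2 1.42.0 with its size factors, library size only, upper-quartile factors, no low-count filter, at least 10 counts in every library, the compared groups alone, the block, and each library left out in turn.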

Additional observations from a re-analysis of the deposited data

Results flagged for a closer look

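Among the 4 proton pump genes that were called lower with LPS and higher with IFN-β than in unstimulated DCs, the IFN-β response was above the LPS response by 1.72 for *Atp6v0d2*, 0.71 for *Atp6v0a2*, 0.55 for *Atp6v0d1* and 0.46 for *Atp6v1c1* on the log2 scale. They were picked for opposite calls against the same unstimulated libraries, so that a difference between the responses follows from the choice and is given as a description, with no test. With library size alone these differences were 2.0, 0.99, 0.83 and 0.73, and none of the 4 was then called higher with IFN-β than in unstimulated DCs, at -0.08, 0.15, -0.07 and -0.01. With upper-quartile factors *Atp6v0d2* (0.15) and *Atp6v0d1* (0.16) were not called higher with IFN-β either.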

How the results depend on the processing

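Of the alternatives run, library size only turned the most values. With library size only, 4 genes were higher and 22 lower with LPS, 8 higher and 7 lower with IFN-β, and 24 differed between the stimuli, 23 higher and 1 lower with IFN-β. Log2 fold changes then turned with LPS for *Atp6v1f* (-0.29), *Atp6v1b2* (-0.49), *Atp6v0e* (-0.39), *Ctsz* (-0.07), *Ctsb* (-0.42), *Ctso* (-0.08), *Ctsk* (-0.14), *Atp6ap2* (-0.34), *Lamp1* (-0.49), *Atp6v0b* (-0.42), *Atp6v1h* (-0.02), *Ctss* (-0.34), *Atp6v1g1* (-0.47) and *Atp6v1a* (-0.52). With IFN-β they turned for *Atp6v1f* (-0.18), *Atp6v0d1* (-0.07), *Atp6v0e* (-0.14), *Ctsa* (-0.27), *Atp6ap1* (-0.27), *Ctsl* (-0.16), *Atp6v1c1* (-0.01), *Atp6v0c* (-0.16), *Atp6v0d2* (-0.08), *Ctsh* (-0.20), *Atp6v1h* (-0.01) and *Atp6v1g1* (-0.08). For IFN-β against LPS they turned for *Atp6v1f* (0.11), *Atp6v0e* (0.25), *Ctsz* (0.23), *Ctsc* (0.07), *Atp6v0b* (0.01) and *Atp6v1h* (0.01). Upper-quartile factors turned *Atp6v1a* with LPS (-0.02) and *Ctsa* and *Atp6ap1* with IFN-β (-0.04 each), and DESeq2 turned *Atp6v1d* for IFN-β against LPS (-0.01); none of these 4 had passed the threshold.

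With the replicate letter as a block, 25 genes in place of 15 differed between the stimuli, 19 of them higher with IFN-β, no call was lost in any comparison, and the calls gained are named in the report. The number of genes lower with IFN-β, 1 in the report, was 2 with the block, with upper-quartile factors or without a low-count filter, and 1 to 2 when a library was left out, where *Ctsf* was added without unstimulated library C. Leaving out each library in turn gave 18 to 22 changed genes for LPS, 16 to 20 for IFN-β and 12 to 18 between the stimuli. Values near 0 then crossed it, none of them past the threshold: *Atp6v1a* with LPS (-0.00 to 0.13), *Ctse* (-0.31 to 0.11), *Ctsd* (-0.12 to 0.07), *Ctsa* (-0.03 to 0.12), *Atp6ap1* (-0.02 to 0.11), *Atp6v1g2* (-0.18 to 0.08) and *Ctsh* (-0.01 to 0.23) with IFN-β, and *Atp6v0e* (-0.07 to 0.01), *Atp6v1d* (-0.05 to 0.11) and *Ctsf* (-0.18 to 0.18) for IFN-β against LPS. The share of *Atp6v0d1* with IFN-β against unstimulated DCs ranged from -1.43 to 1.37 percentage points and that of *Atp6v1g2* with IFN-β against LPS from -0.0617 to 0.164, and the other isoform differences kept their direction.

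For IFN-β against LPS, calls appeared without 1 library for *Atp6v1f* (IFN-β library C, -0.22), *Ctsd* (unstimulated library A or C, 0.29), *Ctsb* (unstimulated library A or C, 0.39, or LPS library A, 0.48) and *Ctsk* (unstimulated library C, 0.35). With 3 libraries a condition, exact tests of isoform shares could not go below p = 0.1. Except where a construction is named, the cause of these changes was not tested.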
